A study of Mus musculus with 35 samples.

Results

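The hypoxia-inducible factor (HIF) pathway was followed here through 8 genes in mouse bone marrow-derived macrophages (BMDMs). They are the oxygen-regulated subunit genes Hif1a and Epas1 (which encodes HIF-2α), the partner subunit gene Arnt, the 3 prolyl hydroxylase genes Egln1, Egln2 and Egln3, the ubiquitin ligase subunit gene Vhl, and Hif1an, which encodes the asparaginyl hydroxylase FIH. The 8 genes, chosen with earlier results of these data known, were matched by symbol and correspond to 8 of the 47069 Ensembl gene rows deposited for each library. Marrow of C57BL/6 mice, wild-type or labelled AMPKa1-/-, was grown in medium conditioned by L929 cells, a fibroblast line whose medium supplies macrophage colony-stimulating factor. The cells received 1 of 6 treatments for 24 h, namely the solvent DMSO as vehicle, 100 nM of the synthetic glucocorticoid dexamethasone (Dex), 100 ng/ml of lipopolysaccharide (LPS, a bacterial cell wall component), 1 µg/ml of damage-associated molecular patterns (DAMPs, whose source the labels do not give), LPS + Dex, or DAMPs + Dex. Each genotype and treatment has 3 libraries, except wild-type LPS, for which replicates 2 and 3 were used and replicate 1 was not analysed here, so that 17 wild-type libraries and 18 labelled AMPKa1-/- entered. The labels do not say that each library is a separate culture, and the study's methods take N as cultures from individual mice, so p-values measure the spread between these libraries.

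HIF transcription factors are pairs of an α subunit and ARNT. When oxygen is present, the EGLN prolyl hydroxylases, which use oxygen, iron and 2-oxoglutarate, mark the α subunit, VHL binds the mark and the α protein is degraded, while FIH blocks its contact with coactivators. In macrophages, HIF-1α is known for driving glycolytic and inflammatory genes after LPS, and Egln3 is a well-known HIF target. These steps act on protein, whereas the values here are RNA levels and say nothing of protein amount or hydroxylase activity. In RNA from a whole culture, fewer cells of a type and less RNA per cell cannot be told apart.

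The deposited unit is FPKM, fragments scaled to gene length and library size, so levels may be compared between genes. Library totals of 15837203 to 31955298 fragments were estimated from the steps between low FPKM values, and a single fragment added 0.0313 to 0.0631 FPKM to a gene of 1 kb. Libraries of the same group correlated at r = 0.967 to 0.993 across genes, which are not independent replicates. All 8 macrophage marker genes examined averaged at least 1 FPKM, with library medians of 24420 FPKM for Lyz2, 989 for Adgre1, 537 for Csf1r and 902 for Cd68. Markers of other cells were low in all libraries for T cells (sum at most 0.259 FPKM), B cells (3.19), dendritic cells (1.94), erythroid cells (0.273) and mast cells (1.53), while neutrophil, endothelial and fibroblast markers are taken up beside the results they moved with. Prkaa1, which encodes AMPKα1, was listed at 15.9, 11.8 and 15.3 FPKM in the wild-type vehicle libraries and at 14.8, 16.5 and 15.4 FPKM in those labelled AMPKa1-/-. These values overlap. A gene-level value does not show whether the transcript is functional, so it does not check the genotype labels, and "libraries labelled AMPKa1-/-" is used throughout.

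Stretches just before the annotated start are shown for Hif1a and Vhl, called in both genotypes after LPS, for Egln2, called in both with Dex, and for Egln3 as a known HIF target, from the RefSeq promoter table for GRCm38.p6 (7 of the 8 genes matched; Epas1 is not shown). They run 5′ to 3′ on the gene's strand and, except for Hif1a, end before the first annotated exon. Capitals mark the core of the HIF-binding element, ACGTG or GCGTG on either strand, so that CACGT and CACGC on the printed strand also count, and letters shared by overlapping matches form 1 place. The windows are Hif1a at chr12:73907617-73907866 on the plus strand, which lies inside the longer annotated gene but in no exon, Egln3 at chr12:54203875-54204124 on the minus strand, Egln2 at chr7:27166803-27167052 on the minus strand and Vhl at chr6:113623744-113623958 on the plus strand.
Hif1a: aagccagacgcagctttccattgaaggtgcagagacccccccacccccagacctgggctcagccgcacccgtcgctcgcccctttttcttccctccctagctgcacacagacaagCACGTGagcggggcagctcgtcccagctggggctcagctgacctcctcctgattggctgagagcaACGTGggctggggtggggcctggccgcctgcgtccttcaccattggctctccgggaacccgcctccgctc
Egln3: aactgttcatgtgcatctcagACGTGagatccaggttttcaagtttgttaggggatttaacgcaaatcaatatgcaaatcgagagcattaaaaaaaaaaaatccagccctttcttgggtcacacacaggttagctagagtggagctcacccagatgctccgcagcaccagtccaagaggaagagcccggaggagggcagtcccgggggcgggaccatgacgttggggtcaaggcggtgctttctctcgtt
Egln2: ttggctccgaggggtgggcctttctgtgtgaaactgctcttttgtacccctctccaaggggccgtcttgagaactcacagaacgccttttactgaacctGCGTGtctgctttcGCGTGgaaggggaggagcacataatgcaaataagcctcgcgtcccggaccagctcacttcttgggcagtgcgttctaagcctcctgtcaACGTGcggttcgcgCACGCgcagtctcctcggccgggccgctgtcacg
Vhl: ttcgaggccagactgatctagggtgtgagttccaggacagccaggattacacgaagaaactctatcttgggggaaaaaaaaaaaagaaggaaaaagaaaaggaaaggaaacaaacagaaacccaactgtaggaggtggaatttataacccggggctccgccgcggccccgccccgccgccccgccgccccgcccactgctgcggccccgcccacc
Over the 250 bases before the start, Hif1a had 2 places, Egln3 had 1, Egln2 had 4 (and 1 at another annotated start) and Vhl had 0. Of the matched genes not printed, Arnt had 1, Egln1 had 2 and Hif1an had 0. At least 1 place occurred in 38.6% of the 32851 windows of that length in the table, at least 2 in 13.5% and at least 4 in 1.495%. The glucocorticoid receptor motif AGAACA, searched on both strands, occurred in 16.1% of all windows and in none of the members' windows. A match describes letters, not binding, and the absence of these letters here says nothing of the factor.

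In wild-type vehicle-treated cells Egln2 was the most abundant of the 8 transcripts, at 59.8 ± 3.31 FPKM (SD, n = 3). Arnt followed at 28.7 ± 1.40, Vhl at 25.5 ± 3.39 and Hif1a at 22.4 ± 1.92 FPKM, and neighbours in this series of 3 overlapped in their libraries. Hif1an (12.7 ± 1.52) and Egln1 (11.0 ± 1.16) overlapped with each other, Epas1 lay below them at 4.22 ± 0.458, and Egln3 was lowest at 1.14 ± 0.0781 FPKM. After LPS the order changed, with Hif1a first at 129 ± 9.78 FPKM (SD, n = 2) and Epas1 last at 0.711 ± 0.0788 FPKM. All 8 genes passed the filter of a mean of at least 1 FPKM over the 35 libraries. Egln3 passed through its LPS libraries (mean 0.786 FPKM over the groups without LPS) and Epas1 through the groups without LPS (mean 0.915 FPKM over the LPS and LPS + Dex libraries), so that a difference with LPS was built into their passing. For LPS and for LPS + Dex against vehicle, their adjusted p is therefore taken from a fit without the filter. Every gene enters that fit whatever its level. The same fit is used for Egln3 in LPS + Dex against LPS. Their other adjusted p come from the fit with the filter unless stated.

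**Figure D1:**
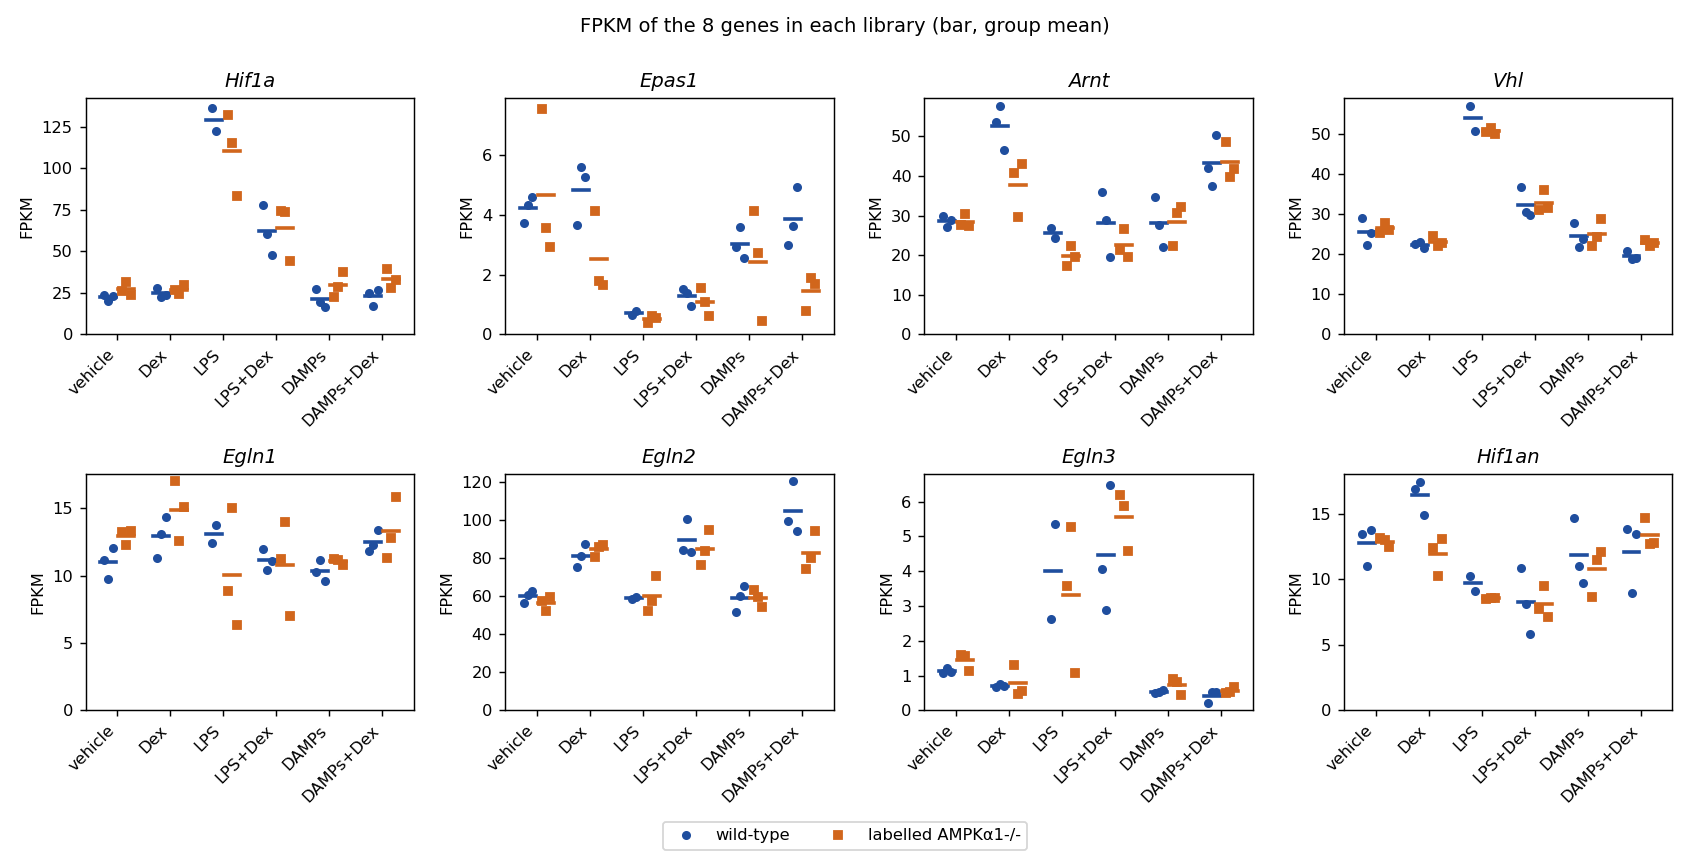
FPKM of the 8 genes (y axis, linear, from 0) in each of the 35 libraries by treatment (x axis) and genotype, with bars at group means. Hif1a and Vhl stand highest in the LPS groups of both genotypes, Epas1 lowest there, and Egln2 is above its vehicle level in every group that received Dex.

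All differences below are on the log2(FPKM + 1) scale, which understates the change of genes near 1 FPKM. They come from limma with Benjamini-Hochberg adjustment over 11354 genes, and a gene was called at an adjusted p under 0.05. LPS was called higher for 3 of the 8 genes and lower for 1 in wild-type cells, beside 19.9% of all genes higher and 35.8% lower (55.7% either way). In cells labelled AMPKa1-/- it was called higher for 3 and lower for 3, against 20.2% and 44.1% of all genes (64.3%). Dex added to LPS was called higher for 1 and lower for 2 in wild-type cells (16.6% and 17.5% of all genes, 34.1% together) and higher for 2 and lower for 2 in cells labelled AMPKa1-/- (19.3% and 18.4%, 37.7% together). Comparison of LPS + Dex with vehicle, which shares libraries with both, gave 4 higher and 2 lower in each genotype, beside 17.2% and 37% of all genes in wild-type cells (54.2%) and 16.7% and 40.8% in cells labelled AMPKa1-/- (57.4%). These counts include Egln3 and Epas1. Of the other 6 genes, LPS was called higher for 2 and lower for 0 in wild-type cells and for 2 and 2 in cells labelled AMPKa1-/-, LPS + Dex against LPS for 1 and 2 in each genotype, and LPS + Dex against vehicle for 3 and 1 in each. Dex alone was called higher for 2 and 1 of the 8 genes and lower for 0, where 15.9% and 11.9% of all genes were called higher and 30.9% and 27.9% either way. DAMPs were called for 0 of 8 in either genotype (2.01% and 4.13% of all genes, with 1.22% and 1.89% higher and 0.793% and 2.24% lower). Counts of this size among 8 genes are not read as a result about the pathway, and the account below is of the single genes. Median differences of the 8 genes after LPS were 0.11 and -0.16, beside -0.19 and -0.30 over all genes.

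LPS moved the median of all genes by more than 0.1. For some genes and comparisons differences are therefore also given relative to it, after every library was centred on the same median. Called genes were higher in 35.7% of cases for LPS against vehicle in wild-type cells and in 46.3% after centring, and in 31.4% and 49.0% in cells labelled AMPKa1-/-. For LPS + Dex against vehicle the shares were 31.7% and 50.3% in wild-type cells, and 29.0% and 50.9% in cells labelled AMPKa1-/-. The serum amyloid gene Saa3 alone took 7.12 to 7.2% of the summed FPKM in wild-type LPS libraries, 3.74 to 7.58% in LPS libraries labelled AMPKa1-/-, 16 to 24% in wild-type and 16.5 to 21.5% in AMPKa1-/- LPS + Dex libraries, and at most 0.0344% in vehicle libraries. Its part in the differences was not tested.

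Hif1a and Epas1, which encode the alternative α subunits, moved in opposite directions after LPS. Hif1a was at 23.8, 20.2 and 23.2 FPKM in the 3 wild-type vehicle libraries and at 136 and 122 FPKM in the 2 LPS libraries. The groups lay far apart, with the LPS mean 5.77 times that of vehicle. In libraries labelled AMPKa1-/- the vehicle values were 26.0, 31.6 and 24.0 FPKM and the LPS values 132, 115 and 83.4 FPKM, a ratio of means of 4.05, again without overlap. The log2 differences were 2.48 ± 0.25 (SE, adjusted p = 1.64e-09) in wild-type cells and 1.96 ± 0.22 (adjusted p = 1.13e-08) in cells labelled AMPKa1-/-, and 2.63 and 2.24 after centring. Hif1a shares 330 bp, or 5.6% of its exon length, with the antisense gene Gm15283 (mean 0.297 FPKM) and 148 bp with Gm49321 on its own strand, and whether counting used strand is not given in the sources used here.

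Epas1 gave the reverse picture. Wild-type vehicle libraries held 3.72, 4.34 and 4.61 FPKM and LPS libraries 0.656 and 0.767 FPKM, so vehicle was 5.94 times LPS on average. Vehicle libraries labelled AMPKa1-/- were more scattered, at 7.55, 3.57 and 2.92 FPKM, and their LPS libraries held 0.386, 0.624 and 0.559 FPKM. Neither genotype showed overlap between the groups. On the log2(FPKM + 1) scale Epas1 fell by 1.61 ± 0.38 and 1.82 ± 0.34 in the fit without the filter (adjusted p = 0.00163 and 0.000105), and the differences were -1.46 and -1.54 after centring. Within single libraries Hif1a was 4.66 to 6.40 times Epas1 in wild-type vehicle cells and 159 and 207 times after LPS, and in libraries labelled AMPKa1-/- the range went from 3.45 to 8.84 times to 149 to 342 times.

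Epas1 is well known from endothelium, and the endothelial marker list was examined beside it. That list summed to a median of 52.8 FPKM in wild-type LPS libraries and 39.0 in those labelled AMPKa1-/-, against 1.92 and 1.68 FPKM in vehicle. With LPS + Dex, where Hif1a and Vhl were also below their LPS levels, its summed medians were 3.63 and 1.52 FPKM. Kdr, its most abundant gene, reached 52.9 FPKM, while Cdh5 and Tek averaged under 0.1 FPKM. The neutrophil list also moved with LPS, from a summed median of 7.05 FPKM in wild-type vehicle to 144 in LPS and 653 in LPS + Dex (20.2, 138 and 346 FPKM in libraries labelled AMPKa1-/-). Of its 8 genes 4 averaged at least 1 FPKM. S100a8 reached 1147 FPKM, Camp 133 and Ngp 7.56 FPKM, while Ly6g, Elane, Mpo and Cxcr2 averaged under 0.1 FPKM. The part of these lists in the differences with LPS or LPS + Dex was not tested.

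Dex given with LPS left Hif1a between its vehicle and LPS levels. The LPS + Dex libraries were at 78.1, 60.3 and 47.6 FPKM in wild-type cells and at 74.1, 73.9 and 43.8 FPKM in cells labelled AMPKa1-/-. Every one of these lay below every LPS library and above every vehicle library of its genotype. Hif1a fell by 1.07 ± 0.25 (adjusted p = 0.00106) and 0.79 ± 0.22 (adjusted p = 0.0053) against LPS, with LPS 2.08 and 1.72 times LPS + Dex in mean FPKM. Without replicate 3 of the LPS + Dex libraries labelled AMPKa1-/-, the lowest of that group, the difference was -0.54 (adjusted p = 0.0661). Against vehicle, Hif1a was still higher by 1.40 ± 0.22 (adjusted p = 4.77e-06) and 1.17 ± 0.22 (adjusted p = 5.06e-05).

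Dex alone made no detectable difference to Hif1a, at 28.1, 22.6 and 23.8 FPKM in wild-type cells (0.14 ± 0.22, adjusted p = 0.655) and at 26.7, 24.3 and 29.4 FPKM in cells labelled AMPKa1-/- (-0.01 ± 0.22, adjusted p = 0.975). The wild-type Dex effect on Hif1a was lower in the presence of LPS than in its absence (difference of effects -1.21 ± 0.33, adjusted p = 0.00611). In cells labelled AMPKa1-/- this difference of effects was -0.78 ± 0.31 (adjusted p = 0.0641), and it passed with the replicate number as a block (adjusted p = 0.0482), after centring (-0.85, adjusted p = 0.0128) and without LPS replicate 3 (-0.96, adjusted p = 0.027) or LPS + Dex replicate 1 or 2 (-0.90 each, adjusted p = 0.0453 and 0.0462). This comparison of effects was called lower for 3 of the 8 genes in wild-type cells (17.1% of all genes lower, 32% either way), and higher for 1 (Egln3) and lower for 1 in cells labelled AMPKa1-/- (15.5% and 12.8% of all genes, 28.4% together). Egln3 passed the filter through its LPS and LPS + Dex libraries, so its call here supports nothing. With DAMPs in place of LPS the comparison of effects called 0 of 8 (0.00881% and 0.308% of all genes). Over all genes called in wild-type cells, 46.5% were higher, and 56.7% after centring.

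Epas1 stayed low with LPS + Dex, at 1.52, 1.37 and 0.961 FPKM in wild-type cells and 1.54, 1.08 and 0.602 FPKM in cells labelled AMPKa1-/-. The wild-type values lay above both LPS libraries, and in the other genotype the 2 groups overlapped. The differences from LPS were 0.41 ± 0.37 (adjusted p = 0.425) and 0.42 ± 0.33 (adjusted p = 0.342), which did not pass. Against vehicle the gene fell by 1.20 ± 0.34 and 1.39 ± 0.34 without the filter (adjusted p = 0.00898 and 0.00231). With Dex alone Epas1 was at 3.66, 5.59 and 5.26 FPKM in wild-type cells and at 4.12, 1.79 and 1.66 FPKM in cells labelled AMPKa1-/-, overlapping vehicle in both. The latter difference was -0.67 ± 0.33 (adjusted p = 0.131), and it passed when only these 2 groups were fitted with the replicate number as a block (adjusted p = 0.0102) or when Dex replicate 1 was left out (-0.98, adjusted p = 0.0416). The Dex effect with LPS minus that without was 1.10 ± 0.46 in these cells (adjusted p = 0.0792), and it passed with the block (adjusted p = 0.0479) and without vehicle replicate 3, Dex replicate 1 or DAMPs replicate 3 (1.32, 1.40 and 1.10, adjusted p = 0.0451, 0.0264 and 0.025). These fits used the filter, which Epas1 passed through the groups without LPS. The values of this comparison of effects are therefore a description and support nothing.

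Arnt, the main partner of the HIF α subunits, was higher with Dex alone in wild-type cells. Wild-type vehicle libraries held 30.0, 27.2 and 28.9 FPKM and Dex libraries 53.7, 57.6 and 46.6 FPKM, with no overlap. The Dex mean was 1.83 times as high, a log2 difference of 0.85 ± 0.18 (adjusted p = 0.000831). In libraries labelled AMPKa1-/- the vehicle values 27.5, 30.5 and 27.3 FPKM and the Dex values 40.8, 29.6 and 43.0 FPKM overlapped through Dex replicate 2. That difference was 0.38 ± 0.18 (adjusted p = 0.126), and it passed after centring (0.47, adjusted p = 0.00585), after quantile normalization (0.43, adjusted p = 0.0281) and without Dex replicate 2 (0.54, adjusted p = 0.0476).

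With DAMPs present, Dex was followed by a similar Arnt level. The DAMPs + Dex libraries held 41.9, 37.6 and 50.2 FPKM in wild-type cells against 34.8, 27.5 and 22.1 FPKM with DAMPs, and 48.7, 39.8 and 41.8 FPKM against 22.2, 30.7 and 32.2 FPKM in cells labelled AMPKa1-/-. All DAMPs + Dex libraries lay above all DAMPs libraries of their genotype. Arnt rose by 0.62 ± 0.18 (adjusted p = 0.0136) and 0.61 ± 0.18 (adjusted p = 0.0144), in comparisons that called 2 of the 8 genes higher and 1 lower in wild-type cells (11.7% and 12.6% of all genes, 24.3% together) and 2 higher in cells labelled AMPKa1-/- (13.1% of all genes higher, 25.3% either way). Several settings ended these calls, among them fitting the 2 wild-type groups alone (adjusted p = 0.0586), a replicate block on the 2 groups (adjusted p = 0.077 and 0.0876) and leaving out replicate 3 of the wild-type DAMPs or DAMPs + Dex libraries (0.46 and 0.50, adjusted p = 0.105 and 0.0792). Leaving out replicate 1 of the DAMPs or DAMPs + Dex libraries labelled AMPKa1-/- did so too (0.45 and 0.53, adjusted p = 0.115 and 0.0729).

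With LPS present, no such difference was called for Arnt. Its wild-type LPS libraries held 26.8 and 24.4 FPKM and its LPS + Dex libraries 36.0, 28.9 and 19.4 FPKM, which overlap (0.09 ± 0.21, adjusted p = 0.784). The wild-type Dex effect with LPS minus that without LPS was -0.76 ± 0.28 (adjusted p = 0.0362). It no longer passed when single libraries were left out (vehicle replicates 2 and 3, Dex replicates 1 and 2, either LPS library or LPS + Dex replicate 3), with values of -0.82 to -0.52 and adjusted p of 0.0513 to 0.134. In libraries labelled AMPKa1-/- LPS was at 17.3, 22.2 and 19.6 FPKM, below every vehicle library, a fall by 0.51 ± 0.18 (adjusted p = 0.0169). Relative to the median of all genes that difference was -0.24 (adjusted p = 0.111), after quantile normalization it was -0.31 (adjusted p = 0.0737), and without LPS replicate 1 or vehicle replicate 2 it was -0.43 and -0.46 (adjusted p = 0.0772 and 0.0581).

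Of the 3 prolyl hydroxylases, Egln2 was the most abundant in every library and made up 73.9 to 90.5% of their summed FPKM. In the main fit Egln2 was called higher with Dex alone and with Dex added to LPS or to DAMPs, in both genotypes. Wild-type libraries held 56.2, 60.7 and 62.6 FPKM with vehicle and 75.4, 80.9 and 87.6 FPKM with Dex. Those labelled AMPKa1-/- held 57.6, 52.2 and 59.4 FPKM with vehicle and 80.7, 86.0 and 87.0 FPKM with Dex. The groups did not overlap, and the means differed 1.36-fold and 1.50-fold, with log2 differences of 0.44 ± 0.12 (adjusted p = 0.00589) and 0.58 ± 0.12 (adjusted p = 0.000421). Relative to the median of all genes the wild-type difference was 0.35 (adjusted p = 0.0763).

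Egln2 was also higher with Dex in LPS-treated cells. The LPS libraries held 58.6 and 59.8 FPKM in wild-type cells and 52.3, 57.3 and 70.6 FPKM in cells labelled AMPKa1-/-, and LPS + Dex libraries 84.5, 101 and 83.3 FPKM and 76.3, 83.5 and 94.8 FPKM. Again the groups did not overlap, and Egln2 rose by 0.58 ± 0.13 (adjusted p = 0.000876) and 0.50 ± 0.12 (adjusted p = 0.00119), or 1.51-fold and 1.41-fold in mean FPKM. With DAMPs + Dex it rose 1.78-fold against DAMPs in wild-type cells (0.82 ± 0.12, adjusted p = 4.4e-06) and 1.40-fold in cells labelled AMPKa1-/- (0.48 ± 0.12, adjusted p = 0.00292). The last call was lost when these 2 groups were fitted alone with a replicate block (adjusted p = 0.109). LPS itself made no called difference to Egln2 (-0.01 ± 0.13 and 0.08 ± 0.12), although after centring the difference in cells labelled AMPKa1-/- was 0.36 (adjusted p = 0.0415). Its exons share 11 bp with Cyp2t4 on the other strand.

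Egln3 was the least abundant hydroxylase. Wild-type vehicle libraries held 1.08, 1.23 and 1.11 FPKM and LPS libraries 2.63 and 5.36 FPKM, without overlap but with a wide gap between the 2 LPS libraries. Libraries labelled AMPKa1-/- held 1.60, 1.56 and 1.14 FPKM with vehicle and 3.57, 5.27 and 1.08 FPKM with LPS, where replicate 3 lay below every vehicle library. In the fit without the filter the Egln3 difference was 1.17 ± 0.31 (adjusted p = 0.00472) in wild-type cells and 0.69 ± 0.28 (adjusted p = 0.0631) in cells labelled AMPKa1-/-, where it did not pass. With the filter, the wild-type difference was 0.76 without LPS replicate 3 (adjusted p = 0.0904).

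Egln3 was higher with LPS + Dex than with vehicle. The LPS + Dex libraries held 4.05, 2.88 and 6.47 FPKM in wild-type cells and 6.19, 5.86 and 4.58 FPKM in cells labelled AMPKa1-/-, all above every vehicle library. The rises without the filter were 1.30 ± 0.28 (adjusted p = 0.000678) and 1.42 ± 0.28 (adjusted p = 0.000224), and 3.92-fold and 3.87-fold in mean FPKM. Between LPS + Dex and LPS the difference without the filter was 0.13 ± 0.31 in wild-type cells and 0.74 ± 0.28 in cells labelled AMPKa1-/-, where the groups overlapped through LPS replicate 3, and neither passed (adjusted p = 1 and 0.0727).

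With Dex alone Egln3 was at 0.660, 0.750 and 0.696 FPKM in wild-type cells and at 1.31, 0.461 and 0.566 FPKM in cells labelled AMPKa1-/-, and neither difference passed (-0.33 ± 0.27 and -0.48 ± 0.27, adjusted p = 0.361 and 0.198). With DAMPs it was at 0.502, 0.517 and 0.583 FPKM in wild-type cells, below all vehicle libraries, and at 0.895, 0.815 and 0.445 FPKM in cells labelled AMPKa1-/-, also below all of theirs. Those differences did not pass either (-0.48 ± 0.27 and -0.51 ± 0.27, adjusted p = 0.666 and 0.440). Over all libraries Egln3 rests on 13 to 409 fragments, the fewest of the 8 genes. In the wild-type LPS libraries Epas1 rests on fewer, 77.9 to 102 against 149 to 340 for Egln3.

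Egln1 encodes the hydroxylase held to be the main oxygen sensor in most cells. It ranged from 6.37 to 17.0 FPKM over all libraries. In the main fit it was called in none of the comparisons between treatments. In wild-type cells it averaged 11.0 ± 1.16 FPKM with vehicle, 12.9 ± 1.52 with Dex, 13.1 ± 0.931 with LPS (n = 2) and 11.2 ± 0.768 with LPS + Dex. The LPS libraries labelled AMPKa1-/- held 8.84, 15.0 and 6.37 FPKM, on either side of the vehicle mean of 12.9 ± 0.569. Their difference was -0.41 ± 0.20 (adjusted p = 0.0712), and it depended on single libraries and on the scaling. It was -0.71 without LPS replicate 2 (adjusted p = 0.00127) and -0.15 without LPS replicate 3 (adjusted p = 0.514), and -0.13 after centring (adjusted p = 0.544) and -0.10 after quantile normalization (adjusted p = 0.618). Leaving out LPS + Dex replicate 3 left the value at -0.41 (adjusted p = 0.0424). LPS + Dex against vehicle in the same genotype was -0.29 ± 0.20 for Egln1 (adjusted p = 0.206). It was -0.49 without LPS + Dex replicate 2 (adjusted p = 0.0453), -0.040 without LPS + Dex replicate 3 (adjusted p = 0.884), -0.0045 after centring (adjusted p = 0.985) and 0.0083 after quantile normalization (adjusted p = 0.972).

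Vhl, the substrate receptor for hydroxylated HIF-α, was, like Hif1a, higher after LPS and lower with LPS + Dex than with LPS. It was at 28.9, 22.2 and 25.2 FPKM in wild-type vehicle libraries, 56.9 and 50.6 FPKM with LPS and 36.8, 30.6 and 29.7 FPKM with LPS + Dex. Libraries labelled AMPKa1-/- held 25.3, 27.8 and 26.0 FPKM with vehicle, 50.3, 51.5 and 50.0 FPKM with LPS and 31.0, 35.9 and 31.6 FPKM with LPS + Dex. In both genotypes vehicle was lowest, LPS + Dex intermediate and LPS highest, with no overlap between the groups. LPS raised Vhl by 1.06 ± 0.12 (adjusted p = 1.12e-08) and 0.92 ± 0.10 (adjusted p = 1.44e-08), or 2.11-fold and 1.92-fold, and it fell by 0.72 ± 0.12 (adjusted p = 1.45e-05) and 0.61 ± 0.10 (adjusted p = 2.46e-05) with LPS + Dex against LPS. The Dex effect on Vhl was lower with LPS than without, by differences of -0.55 ± 0.16 (adjusted p = 0.00855) and -0.42 ± 0.15 (adjusted p = 0.0311), neither of which held in every setting.

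Vhl remained above vehicle with LPS + Dex by 0.34 ± 0.10 (adjusted p = 0.00797) and 0.30 ± 0.10 (adjusted p = 0.0148). Over the settings and libraries left out, this difference ran from 0.24 to 0.56 in wild-type cells. In cells labelled AMPKa1-/- it ran from 0.24 to 0.59. In wild-type cells the call above vehicle ended without vehicle replicate 2 or LPS + Dex replicate 1 (0.24 each, adjusted p = 0.0699 and 0.0654) and with the 2 groups fitted alone (adjusted p = 0.104). In cells labelled AMPKa1-/- it ended without vehicle replicate 1 (0.28, adjusted p = 0.0533) or LPS + Dex replicate 2 (0.24, adjusted p = 0.0808). Dex alone gave -0.17 ± 0.10 (adjusted p = 0.207) and -0.19 ± 0.10 (adjusted p = 0.188), and the wild-type difference passed after centring (-0.26, adjusted p = 0.0206) and quantile normalization (-0.28, adjusted p = 0.0195). With DAMPs + Dex against DAMPs the wild-type difference was -0.30 ± 0.10 (adjusted p = 0.0344), at 19.6 ± 1.01 against 24.4 ± 2.99 FPKM, and it was lost with the 2 groups alone (adjusted p = 0.186) and without DAMPs replicate 1 or 3 or DAMPs + Dex replicate 2 or 3 (-0.32 to -0.21, adjusted p = 0.0591 to 0.197). The other genotype gave -0.13 ± 0.10 (adjusted p = 0.421).

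Hif1an, whose product FIH silences the transactivation domain of HIF-α, was lowest in cells that received LPS. Its wild-type means were 12.7 ± 1.52 FPKM with vehicle, 9.69 ± 0.805 with LPS (n = 2) and 8.28 ± 2.55 with LPS + Dex. Those labelled AMPKa1-/- were 12.9 ± 0.366, 8.56 ± 0.0584 and 8.09 ± 1.23 FPKM. All libraries with LPS or LPS + Dex lay below all vehicle libraries of their genotype. The LPS difference passed in cells labelled AMPKa1-/- (-0.54 ± 0.17, adjusted p = 0.00806) but not in wild-type cells (-0.36 ± 0.19, adjusted p = 0.115), and relative to the median of all genes it was -0.26 (adjusted p = 0.0653) and -0.21 (adjusted p = 0.195). After quantile normalization the former was -0.24 (adjusted p = 0.0768). LPS + Dex against vehicle gave -0.60 ± 0.17 (adjusted p = 0.0044) and -0.62 ± 0.17 (adjusted p = 0.0032). Relative to the median of all genes these were -0.37 and -0.33 (adjusted p = 0.011 and 0.0232), and after quantile normalization -0.35 and -0.30 (adjusted p = 0.0136 and 0.0318). The wild-type call ended without LPS + Dex replicate 3 (-0.39, adjusted p = 0.0626) and with the 2 groups alone (adjusted p = 0.0621, or 0.0674 with a replicate block). The wild-type Dex effect with LPS minus that without was -0.58 ± 0.26 for Hif1an (adjusted p = 0.0829), and it passed with the replicate block (-0.69, adjusted p = 0.0275) and without LPS + Dex replicate 1 (-0.78, adjusted p = 0.0147).

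**Figure D2:**
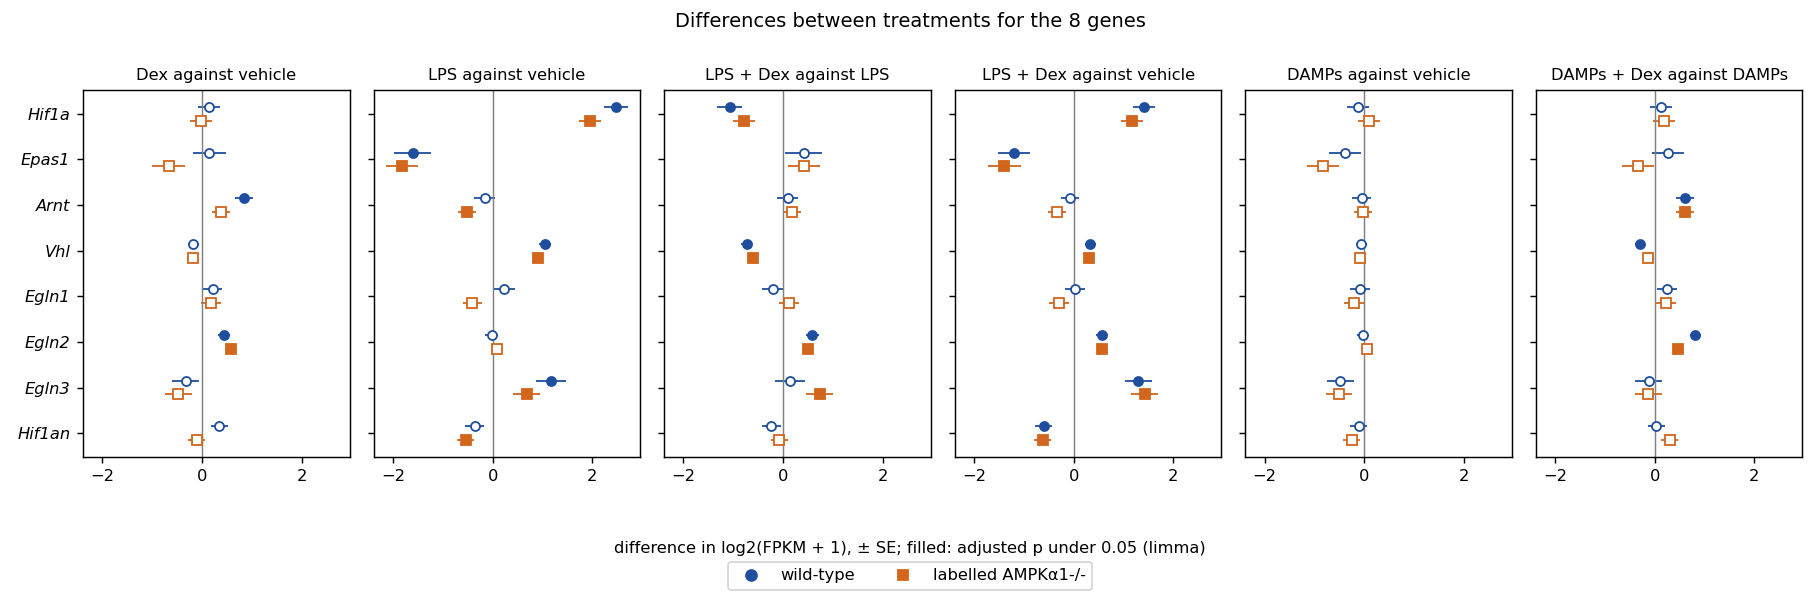
Differences between treatments for the 8 genes (x axis, log2(FPKM + 1) scale, with SE bars) in wild-type cells and cells labelled AMPKa1-/-. Filled points passed an adjusted p under 0.05 in the fit with the filter, which Egln3 and Epas1 passed through their levels in some treatments. Hif1a at 2.48 and 1.96 and Epas1 at -1.61 and -1.82 are the extremes of the LPS panel, and Egln2 is the gene called in both genotypes with Dex alone, LPS + Dex against LPS and DAMPs + Dex against DAMPs.

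DAMPs on their own left all 8 genes uncalled in both genotypes. The median difference of the 8 was -0.10 in wild-type cells and -0.14 in cells labelled AMPKa1-/-, beside -0.03 and -0.07 over all genes. At an unadjusted p under 0.05, limma gave 0 of 8 and 1 of 8, and 1099 and 1509 of the 11354 genes. The 1 was Epas1 in cells labelled AMPKa1-/-, with DAMPs libraries at 4.12, 2.73 and 0.433 FPKM (-0.83 ± 0.33, unadjusted p = 0.0174, adjusted p = 0.204). Replicate 3 was far below the other 2, and the difference passed without replicate 1 (-1.21, adjusted p = 0.0453). Without DAMPs replicate 3, Epas1 passed in DAMPs + Dex against DAMPs (-0.87, adjusted p = 0.03, against -0.33 ± 0.33 with all libraries).

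No response to treatment was shown to differ between the genotypes. For Dex, LPS, DAMPs, LPS + Dex against LPS and DAMPs + Dex against DAMPs, the test of the difference between genotypes by limma called 0 of the 8 genes and 0% of all genes. Without the filter it called 2 to 118 of all genes and still 0 of the 8. At an unadjusted p under 0.05 it gave Egln1 for LPS (-0.64 ± 0.29) and Egln2 for DAMPs + Dex (-0.34 ± 0.17) among the 8, and between 66 genes (DAMPs) and 2441 genes (Dex) among all. For the Hif1a response to LPS the difference, AMPKa1-/- minus wild-type, was -0.51 ± 0.33.

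Averaged over the 6 treatments, Epas1 was lower in libraries labelled AMPKa1-/- by 0.41 on the log2(FPKM + 1) scale (-0.41 ± 0.14, adjusted p = 0.0313), the 1 gene of 8 called where 12.3% of all genes were called lower and 21.4% either way. Its means were 4.22 ± 0.458 and 4.68 ± 2.51 FPKM with vehicle, 4.84 ± 1.03 and 2.52 ± 1.38 with Dex, 0.711 ± 0.0788 and 0.523 ± 0.123 with LPS, 1.29 ± 0.291 and 1.07 ± 0.470 with LPS + Dex, 3.02 ± 0.527 and 2.43 ± 1.86 with DAMPs, and 3.86 ± 0.990 and 1.45 ± 0.582 with DAMPs + Dex, wild-type first. The libraries of the genotypes overlapped with vehicle, Dex, LPS + Dex and DAMPs, and not with LPS or DAMPs + Dex. With vehicle alone 0 of 8 and 0.432% of all genes were called between the genotypes. The Epas1 call is marginal. It was lost after centring (-0.36, adjusted p = 0.0574), quantile normalization (-0.33, adjusted p = 0.0876), without the filter (adjusted p = 0.0683) and with the replicate number as a random effect (-0.41, adjusted p = 0.0747), and without any 1 of 7 libraries (in wild-type cells replicate 2 of Dex, both LPS libraries and replicate 3 of DAMPs + Dex, and in cells labelled AMPKa1-/- replicate 3 of vehicle and of LPS + Dex and replicate 2 of Dex), with values of -0.42 to -0.38 and adjusted p of 0.0508 to 0.0543.

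After centring, Hif1a (0.25, adjusted p = 0.0201) and Vhl (0.10, adjusted p = 0.0398) passed as higher in libraries labelled AMPKa1-/-, against 0.19 ± 0.09 and 0.05 ± 0.04 without it. Arnt, at -0.19 ± 0.08 (adjusted p = 0.081), passed without wild-type LPS + Dex replicate 3 or DAMPs replicate 3 (-0.22 and -0.21, adjusted p = 0.0178 and 0.0426). Among all genes called for genotype the share that was higher went from 42.4% to 58.7% with centring. Fibroblast markers summed to less in libraries labelled AMPKa1-/- than in any wild-type library with Dex (2.97 to 4.29 against 11.6 to 24.1 FPKM), LPS (0.388 to 1.95 against 6.39 to 6.98 FPKM) and DAMPs + Dex (1.97 to 3.99 against 8.97 to 18.1 FPKM). LPS and DAMPs + Dex are also the treatments in which Epas1 did not overlap between the genotypes. With vehicle (1.16 to 2.74 against 1.49 to 17.9 FPKM), LPS + Dex (0.524 to 1.95 against 0.630 to 5.52 FPKM) and DAMPs (1.58 to 2.99 against 1.28 to 8.12 FPKM) the sums overlapped. Of the 4 markers 2 averaged at least 1 FPKM. The most abundant, Col1a2, reached 11.9 FPKM, and Pdgfra averaged under 0.1 FPKM. Neutrophil markers summed to more in libraries labelled AMPKa1-/- than in any wild-type library with Dex (21.7 to 45.1 against 2.16 to 6.64 FPKM). The same held with DAMPs (13.1 to 37.1 against 2.28 to 6.30 FPKM), and with the other treatments the neutrophil sums overlapped. The part of the fibroblast and neutrophil lists in the Epas1 difference was not tested.

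Beyond the 8 genes, the family has a further α subunit gene, Hif3a, whose shorter products are known to restrain HIF activity, and a further partner gene, Arnt2. Hif3a, at chr7:17031507-17062427 on the minus strand, was at or near 0 without Dex and at several FPKM with it. It passed the filter through its Dex libraries, so that a Dex difference was built into its passing, and its levels are given with no test. Its wild-type libraries were at 0, 0.0252 and 0 FPKM with vehicle and at 8.93, 12.8 and 6.52 FPKM with Dex. LPS libraries held 0.419 and 0.160 FPKM and LPS + Dex libraries 11.9, 10.5 and 5.10 FPKM. Libraries labelled AMPKa1-/- were at 3.89, 4.08 and 3.79 FPKM with Dex and at 7.19, 9.89 and 9.07 FPKM with LPS + Dex. In all 6 pairs of groups with and without Dex the Dex libraries lay above those without Dex.

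Arnt2 averaged 0.281 FPKM, failed the filter and was not tested. It was at 1.52 and 0.785 FPKM in wild-type LPS libraries and at 1.34, 1.74 and 3.27 FPKM in LPS libraries labelled AMPKa1-/-. All LPS + Dex libraries were at 0.217 FPKM or less and all vehicle libraries at 0.0730 FPKM or less. LPS libraries were the highest in both genotypes.

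**Figure D3:**
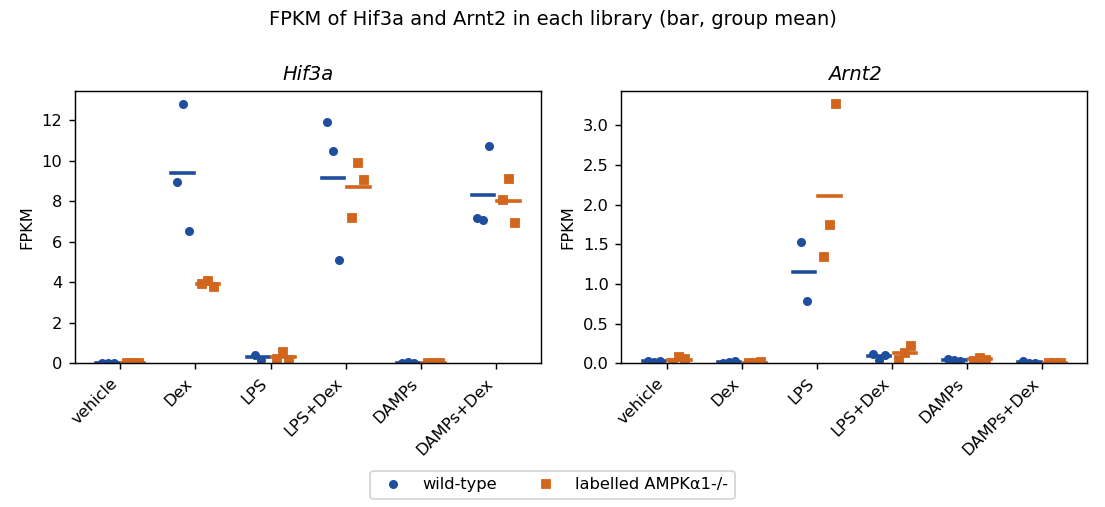
FPKM (y axis, linear, from 0) of Hif3a and Arnt2 in each library by treatment (x axis) and genotype, with bars at group means. Hif3a lies between 3.79 and 12.8 FPKM in every library that received Dex and at 0.552 FPKM or less in all others, whereas Arnt2 is at 0.785 FPKM or more in the LPS libraries and at 0.217 FPKM or less in all others.

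The further lists cover the rest of the pathway. A gene that is low in all groups but 1 passed the filter through that group, and each list is described by its counts and its median. For the VHL ligase list and the cofactors these are given for LPS only. Their single genes are also given with Dex, and no result about these 2 lists with Dex is drawn from them. Over all genes, the median after LPS was -0.19 in wild-type cells and -0.30 in cells labelled AMPKa1-/-, that after LPS + Dex against LPS -0.03 and 0.01, and that after Dex alone 0.05 and -0.05. The shares of all genes called are repeated beside the counts, higher first and then lower, and a count near them is not read as a result about the list. The VHL ligase list holds 7 genes, all tested, and includes ubiquitin-conjugating enzyme genes beside subunits of the complex. Of these 7 genes, LPS was called higher for 2 and lower for 1 in wild-type cells (median 0.28, beside -0.19 over all genes). In cells labelled AMPKa1-/- it was called higher for 3 and lower for 1 (0.19 and -0.30). Either way that was 3 and 4 of 7, where 55.7% and 64.3% of all genes were called (19.9% and 35.8% in wild-type cells, 20.2% and 44.1% in cells labelled AMPKa1-/-). Eloc, which encodes elongin C, the adaptor that holds VHL to its cullin, rose by 0.78 ± 0.09 and 0.83 ± 0.08 and fell by 0.44 ± 0.09 and 0.32 ± 0.08 when Dex was added. The cullin gene Cul2 rose with LPS by 0.41 ± 0.15 in wild-type cells. Ube2d1, a ubiquitin-conjugating enzyme gene, was the exception in the other direction, with -1.01 ± 0.15 and -1.26 ± 0.13 after LPS.

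Of 17 cofactors and regulators of HIF, 15 were tested (Cited4 and Inhbb averaged under 1 FPKM). LPS was called higher for 5 and lower for 2 in wild-type cells (median 0.12) and higher for 4 and lower for 5 in cells labelled AMPKa1-/- (median -0.07, which is 0.21 after centring). Either way 55.7% and 64.3% of all genes were called (19.9% and 35.8%, 20.2% and 44.1%). Siah2, a ligase that targets prolyl hydroxylases, rose by 2.75 ± 0.20 and 2.82 ± 0.18. The chaperone genes Hsp90aa1 and Hsp90ab1, whose products bind HIF-1α, rose with LPS by 2.11 ± 0.20 and 1.20 ± 0.11 in wild-type cells and fell by 1.74 ± 0.20 and 1.22 ± 0.11 with LPS + Dex against LPS. Cops5 moved likewise by smaller steps, 0.50 ± 0.10 and -0.53 ± 0.10.

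Cited2, which encodes an inhibitor that competes with HIF-α for its coactivator, went the other way. It averaged 87.1 ± 5.34 FPKM with vehicle, 280 ± 6.92 with Dex, 29.2 ± 8.57 with LPS (n = 2) and 79.5 ± 14.4 with LPS + Dex in wild-type cells. The groups labelled AMPKa1-/- averaged 84.9 ± 8.63, 257 ± 28.3, 30.0 ± 8.31 and 115 ± 16.7 FPKM. Dex raised it by 1.68 ± 0.16 and 1.58 ± 0.16 (adjusted p = 3.3e-09 and 9.33e-09), LPS lowered it by 1.57 ± 0.17 and 1.50 ± 0.16, and Dex added to LPS raised it by 1.43 ± 0.17 and 1.92 ± 0.16.

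All 18 glycolytic targets of HIF were tested. LPS was called higher for 13 and lower for 2 in wild-type cells (median 0.99, all genes -0.19) and for 13 and 3 in cells labelled AMPKa1-/- (0.91, all genes -0.30), where the shares of all genes were 19.9% and 35.8% in wild-type cells and 20.2% and 44.1% in cells labelled AMPKa1-/-. Dex alone was called lower for 13 and higher for 2 in wild-type cells (median -0.77, all genes 0.05) and for 9 and 2 in cells labelled AMPKa1-/- (-0.47, all genes -0.05), where 14.9% and 16% of all genes were called lower and 15.9% and 11.9% higher. The sign of these medians did not depend on the scaling tried. With LPS + Dex against LPS the list was split, with 3 higher and 3 lower in wild-type cells (16.6% and 17.5% of all genes) and 4 and 3 in cells labelled AMPKa1-/- (19.3% and 18.4%), and its medians (-0.08 and -0.03) changed sign with quantile normalization.

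Single glycolytic genes differed widely. Slc2a1, the glucose transporter GLUT1, averaged 36.1 ± 9.25 FPKM with vehicle, 135 ± 22.0 with LPS (n = 2) and 50.3 ± 3.33 with LPS + Dex in wild-type cells, a rise of 1.90 ± 0.17 and then a fall by 1.40 ± 0.17 (adjusted p = 1.65e-10 and 1.26e-07). In cells labelled AMPKa1-/- the steps were 1.68 ± 0.15 and -1.02 ± 0.15. Pfkfb3, whose product makes the activator of phosphofructokinase, rose at each step instead, from 25.0 ± 3.21 FPKM with vehicle to 118 ± 9.22 with Dex, 133 ± 18.5 with LPS and 604 ± 240 with LPS + Dex. Its log2 rises with Dex were 2.2 ± 0.30 without LPS and 2.11 ± 0.33 with LPS in wild-type cells, and 1.62 ± 0.30 and 2.57 ± 0.30 in cells labelled AMPKa1-/-. Gpi1 fell by 0.53 ± 0.19 with LPS and rose by 1.05 ± 0.19 with LPS + Dex against LPS in wild-type cells, Pfkp moved the opposite way (0.81 ± 0.16 and -0.96 ± 0.16), and the lactate exporter gene Slc16a3 (2.45 ± 0.29) and Hk2 (2.18 ± 0.24) were among the largest LPS rises.

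Of 30 other hypoxia-response targets 26 were tested (the others averaged under 1 FPKM or had no matching row). LPS was called higher for 13 and lower for 9 in wild-type cells (median 0.90) and for 13 and 10 in cells labelled AMPKa1-/- (0.64), beside 19.9% and 35.8%, and 20.2% and 44.1%, of all genes. LPS + Dex against LPS was called higher for 3 and lower for 11 (median -0.46; 16.6% and 17.5% of all genes) and for 6 and 9 (-0.29; 19.3% and 18.4%). Of these 26 genes 4 passed the filter through their level in some treatments alone. Adm and Nos2 averaged under 1 FPKM outside LPS, Trf with LPS or LPS + Dex and without Dex, and Car9 with Dex, the last 2 being named after their values were seen. Of the other 22, LPS was called higher for 11 and lower for 8 in wild-type cells and for 11 and 9 in cells labelled AMPKa1-/-, and LPS + Dex against LPS for 3 and 9 and for 6 and 7. Several targets are also direct inflammatory genes. Il1b rose by 11.33 ± 0.67 and fell by 6.82 ± 0.67 in wild-type cells. Nos2, the inducible nitric oxide synthase gene, averaged 0.0290 ± 0.0266 FPKM with vehicle, 84.7 ± 69.3 with LPS (n = 2) and 0.479 ± 0.550 with LPS + Dex. Adm, which encodes the vasodilator adrenomedullin, averaged 0.156 ± 0.0898 FPKM with vehicle, 14.4 ± 1.97 with LPS and 0.356 ± 0.103 with LPS + Dex. The chemokine receptor gene Cxcr4 fell by 7.18 ± 0.17 with LPS.

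Dex alone was called higher for 8 and lower for 5 of these 26 targets in wild-type cells (median 0.08, -0.01 after centring), where 15.9% of all genes were higher and 14.9% lower, and for 6 and 5 in cells labelled AMPKa1-/- (median 0.15), where the shares were 11.9% and 16%. Without the same 4 genes the counts were 7 and 5, and 5 and 5. The leading gene was Ddit4, an inhibitor of the kinase complex mTORC1, at 2.28 ± 0.388 FPKM with vehicle and 521 ± 53.4 with Dex in wild-type cells and at 3.68 ± 0.918 and 539 ± 112 FPKM in cells labelled AMPKa1-/- (7.31 ± 0.25 and 6.84 ± 0.25 on the log2(FPKM + 1) scale). With LPS + Dex it reached 62.0 ± 28.5 and 43.6 ± 10.4 FPKM.

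Of 16 other oxygenases that use 2-oxoglutarate, as the HIF hydroxylases do, 14 were tested (P4htm and Tet1 averaged under 1 FPKM). LPS was called higher for 6 and lower for 1 in wild-type cells (median 0.09) and for 4 and 2 in cells labelled AMPKa1-/- (median -0.13, which is 0.15 after centring), beside 55.7% and 64.3% of all genes called either way (19.9% and 35.8%, 20.2% and 44.1%). LPS + Dex against LPS was called lower for 3 in wild-type cells (median -0.32) and 2 in cells labelled AMPKa1-/- (median -0.08), and higher for 0, beside 17.5% and 18.4% of all genes lower and 16.6% and 19.3% higher. The histone demethylase genes Kdm6b (2.13 ± 0.30, then -1.38 ± 0.30) and Kdm4a (1.29 ± 0.22, then -1.37 ± 0.22) rose with LPS and fell with added Dex in wild-type cells, Kdm5c did so by less (0.50 ± 0.20 and -0.61 ± 0.20), and Tet2 rose by 1.37 ± 0.37 with LPS. Kdm6b also rose with Dex alone, by 1.51 ± 0.26 and 1.08 ± 0.26.

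**Figure D4:**
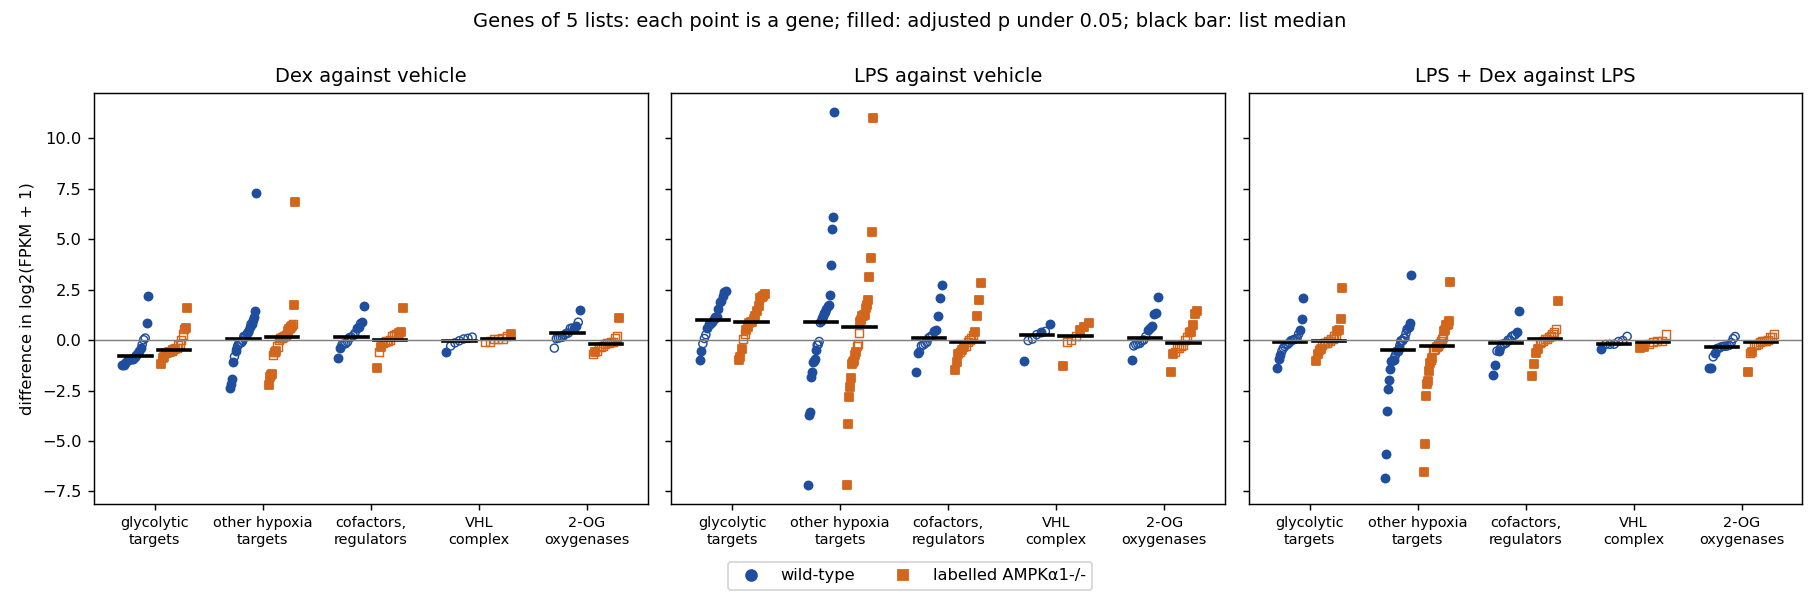
Log2(FPKM + 1) differences of the genes of 5 lists (y axis; x axis, list), for Dex against vehicle, LPS against vehicle and LPS + Dex against LPS in both genotypes, where each point is a gene, filled points passed an adjusted p under 0.05 and black bars are list medians. The glycolytic list has its median at 0.99 for LPS against vehicle in wild-type cells.

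Across the 12 group means of log2(FPKM + 1), Hif1a and Vhl were the most alike of the 8 genes (Pearson r = 0.949 over 12 groups, 0.922 over 35 libraries). Over the groups Hif1a and Egln3 followed (0.836, and 0.759 over 35 libraries). Hif1a and Epas1 were the most opposed (-0.885 and -0.772). Egln3 and Epas1 passed the filter through their levels with or without LPS, so a pattern that follows LPS was partly built in. Arnt and Hif1an had r = 0.808 over 12 groups and 0.823 over 35 libraries. These points share the treatments and the libraries, and the values are descriptions with no test. Among the other genes tested, the closest pattern to Hif1a was that of Etv6 (r = 0.991), then Itpa and Tspan9. Epas1 was closest to Haus3 (0.983), Arnt to Wasf2 (0.986), Egln1 to Kdm1a (0.891), Egln2 to Adamtsl4 (0.961), with Fkbp5 next (0.953), Egln3 to D330045A20Rik (0.986), with Pgam1 at 0.981, and Hif1an to Arhgef12 (0.989). Il1b and Psmd12 were among the genes closest to Vhl (0.989 each). Over the 35 libraries all of these values were lower. They were 0.573 for Egln1 and Kdm1a, 0.826 for Epas1 and Haus3, 0.928 for Hif1a and Etv6, and 0.961 for Vhl and Il1b. There Etv6 ranked 46 for Hif1a and Haus3 ranked 16 for Epas1, so closest holds for the group means only.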

How the data were processed

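RNA was sequenced from 35 BMDM libraries in 12 groups. The authors deposited FPKM values for 47069 Ensembl genes per library, of which 46488 were paired with a symbol, and no other unit was used. The submitters' processing notes name Bowtie2 2.2.3, TopHat2 2.0.12, HTSeq 0.6.1, DESeq2 and the builds GRCm38 and mm10, without roles, and the strand setting is not given in the sources used here. Positions come from GENCODE vM21 on GRCm38. No 2 libraries held identical values.

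From FPKM, log2(FPKM + 1) was computed, genes with a mean of at least 1 FPKM over all libraries were kept, and all 12 groups were fitted together with limma 3.58.1 (R 4.3.3, trend, 2-sided, Benjamini-Hochberg, threshold 0.05). Other steps used Python 3.11.15. The procedure was tested on simulated log2 values for wild-type LPS + Dex against LPS only, with libraries that varied independently. That test cannot cover deviations shared by replicate number, the scaling of libraries or the comparisons of effects. Of values worth fewer than 10 fragments, 55.4 to 63.9% were whole multiples of 1 fragment within 0.001 at the annotated gene lengths, so totals are estimates, FPKM was kept as the unit and no count model was run.

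The members and lists were chosen with earlier results of these data known. Genes named are the 8 members, Prkaa1, up to 4 genes per list with the largest difference among those called for wild-type LPS + Dex against LPS and up to 3 for LPS against vehicle, and the 3 genes closest to each member over group means. Some items that these rules name are not reported here. Arnt2, the genes under the filter and the markers were named for completeness, Saa3 after its share of the signal was seen, and Gm15283, Gm49321 and Cyp2t4 because they overlap members.

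Alternatives were pseudocounts, filters, centring, quantile normalization, only the groups compared, replicate block or random effect, and leaving out each library. Counts without genes that passed the filter through some treatments alone, and the use of the fit without the filter for Egln3 and Epas1 with LPS, were added after seeing the data. Libraries with the same replicate number deviated together, at r above 0.1 in all 3 pairs, only in cells labelled AMPKa1-/-. This held for Dex and vehicle (r = 0.217 to 0.400), LPS and vehicle (0.124 to 0.316), LPS + Dex and LPS (0.356 to 0.375) and LPS + Dex and vehicle (0.246 to 0.365). DAMPs and vehicle in these cells gave 0.023 to 0.445. Wild-type LPS + Dex and LPS, with only 2 pairs, gave 0.113 and 0.429. The pairing comes from the numbers in the labels, which do not say what a number marks.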

Additional observations from a re-analysis of the deposited data

Results flagged for a closer look

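For 5 combinations of gene and genotype the Dex effect with LPS minus that without passed the threshold, by the interaction test of limma with adjustment over all genes. Egln3 is among them, and for the reason given below it is not read as a result. In wild-type cells the Dex effect with LPS minus that without LPS was -1.21 ± 0.33 for Hif1a, -0.76 ± 0.28 for Arnt and -0.55 ± 0.16 for Vhl on the log2(FPKM + 1) scale (adjusted p = 0.00611, 0.0362 and 0.00855). In cells labelled AMPKa1-/- it was 1.21 ± 0.38 for Egln3 and -0.42 ± 0.15 for Vhl (adjusted p = 0.0164 and 0.0311). Egln3 passed the filter through its LPS and LPS + Dex libraries (mean 0.786 FPKM over the groups without LPS), so its value is given as a description and supports nothing. Hif1a and Vhl were lowered by Dex with LPS and not called without it, whereas Arnt was raised by Dex without LPS and not called with it.

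The Vhl value in wild-type cells missed the threshold without LPS replicate 2 (-0.46, adjusted p = 0.0683), with only the 4 groups compared (adjusted p = 0.0558) and with quantile normalization (-0.32, adjusted p = 0.0668), and the Arnt value with only the 4 groups (adjusted p = 0.0674) and without the filter (adjusted p = 0.0666), and without any 1 of the 7 libraries named in the report. For Vhl in cells labelled AMPKa1-/- the call was lost without any 1 of 6 libraries (vehicle replicates 1 and 3, Dex replicate 1, LPS replicate 2 and LPS + Dex replicates 1 and 3), with values between -0.41 and -0.38 and adjusted p of 0.0548 to 0.0772. The Egln3 value was 0.76 (adjusted p = 0.0773) without LPS replicate 3, 0.96 (adjusted p = 0.0618) with quantile normalization and had an adjusted p of 0.0692 with only the 4 groups compared.

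No group held more than 3 libraries, so single libraries were not tested as outliers.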

How the results depend on the processing

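Under other settings 1682 differences were recomputed. Of these 1636 kept their side of the threshold, 33 lost a call and 13 gained one. No called difference changed sign (0), and 35 uncalled ones did. With each library left out in turn, 6440 values gave 6379, 45, 16, 0 and 115. LPS against vehicle for Hif1a and Vhl in both genotypes, and Egln2 with LPS + Dex against LPS, kept their calls wherever they were tested. Epas1 with LPS also kept its calls, but nearly all of these fits used a filter on the mean FPKM. It passed that filter through the groups without LPS, so only its call in the fit without the filter is used.

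Counts of the 8 genes that moved by over 1.5 times were these. The genotype mean, 1 gene, gave 0 without the filter, 0 with a mean FPKM of at least 5, 0 with quantile normalization, 0 with the random effect and 2 with centring. LPS in wild-type cells gave 2 in place of 4 with a mean FPKM of at least 5, which removes Epas1 and Egln3. The Dex effect with and without LPS in cells labelled AMPKa1-/-, 2 genes, gave 1 with that filter, 1 with quantile normalization, 1 with only the groups compared and 4 with the replicate block (Epas1 1.10, adjusted p = 0.0479). Egln3 and Epas1, counted among them, passed the main filter through their levels in some treatments. In wild-type cells it gave 1 in place of 3 with only the groups compared. Dex alone in cells labelled AMPKa1-/- gave 2 in place of 1 with centring, quantile normalization and a replicate block on the groups compared. DAMPs + Dex in wild-type cells gave 1 in place of 3 with only the groups compared, with or without the block, and 0 in place of 2 in cells labelled AMPKa1-/- with the block. The cause was not tested. With the replicate block and only the groups compared, Arnt in LPS + Dex against vehicle, labelled AMPKa1-/-, also passed (-0.34, adjusted p = 0.0253). The random effect and the block on only the groups compared were added after seeing the data.

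Counts over all genes also moved by over 1.5 times in places. Wild-type DAMPs gave 1 in place of 228 with only the groups compared, 2 with the block added, 26 and 372 without DAMPs replicate 3 or 2, and 114 and 81 without vehicle replicate 1 or 3. In cells labelled AMPKa1-/- DAMPs gave 267 and 272 in place of 469 without vehicle replicate 2 or 3, and 311 and 269 without DAMPs replicate 1 or 3. Wild-type LPS + Dex against LPS gave 2065 in place of 3871 with only the groups compared, DAMPs + Dex 1726 in place of 2756 and 1565 in place of 2871 with the block added, and the genotype mean 1485 in place of 2432 with the random effect. Between the genotypes with vehicle, 49 became 19 to 141. The difference of the Dex effect with and without DAMPs in cells labelled AMPKa1-/-, 35 genes, gave 0 to 112 and the share called higher went from 40% to 25.6% with centring.

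With 1 library left out, the counts ran from 0 to 2 for the genotype mean, 1 to 4 and 1 to 3 for the Dex effect with and without LPS (wild-type and AMPKa1-/-), 1 to 3 for DAMPs + Dex in each genotype, 1 to 2 for Dex and 0 to 1 for DAMPs in cells labelled AMPKa1-/-. Where this left 1 wild-type LPS library, it was assumed to vary like the other groups. Over all libraries Egln3 rests on the fewest fragments of the 8 genes. Wild-type LPS rests on 2 libraries.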
